A study of Mus musculus with 2 samples.

Results

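The 10 genes described here carry out MHC class I antigen presentation. They were taken by name from a list proposed with earlier results of these data known, and all 10 were among the 37309 genes of the deposited table. They are the light chain B2m, the heavy chains H2-K1 and H2-D1, the peptide transporter subunits Tap1 and Tap2, the loading factor Tapbp, the immunoproteasome subunits Psmb8, Psmb9 and Psmb10, and the transcriptional regulator Nlrc5. The study asked why some intestinal subepithelial myofibroblasts (ISEMFs), contractile mesenchymal cells that lie beneath the crypt epithelium, help intestinal stem cells to grow in culture. RNA sequencing was done on 1 library of supportive ISEMFs, grown from the small intestine of 5-day-old C57BL/6 neonates, and 1 library of non-supportive ISEMFs, grown in the same way from 2-month-old adults of that strain. Both populations were cultured wild-type cells, and the passage at which their RNA was taken is not stated in the paper. Support for growth, age of the mice, culture passage, the isolation and the library cannot be told apart. There was no replicate, so no difference below has a replicate check.

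In class I presentation, proteasomes cut cytosolic proteins into peptides, and interferon-inducible catalytic subunits can replace the constitutive ones and shift which peptides are made. The TAP transporter moves the peptides into the endoplasmic reticulum, where tapasin helps to load them onto a heavy chain paired with beta-2 microglobulin, and the loaded complex goes to the cell surface for inspection by CD8+ T cells. Most nucleated cells, fibroblasts included, carry class I, and interferons raise the transcription of nearly every gene of the pathway.

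The supportive library held 50674472 reads on genes and the non-supportive library 49615497, of which 14.6% and 7.85% came from mitochondrially encoded genes. Pairs of values below name the supportive library first. The cell type label was checked against its markers. Acta2, the smooth muscle actin of myofibroblasts, had an RPKM (reads on a gene scaled by its exon length and by the size of the library) of 908 and 1410, and all 5 myofibroblast markers passed an RPKM of 1 in a library. All 5 were lower in the supportive library, with intervals of the ratio below 1: Vim was at 325 and 407, Tagln at 206 and 360, Myh11 at 26.3 and 108, and Des, which stayed below 1 in the supportive library, at 0.575 and 3.40. Of 11 macrophage markers, 9 passed that level, and each of these was at least 2-fold lower in the supportive library, against 9.27% of all genes at that level. Most of the 9 passed it only in the non-supportive library. The interval of the ratio was below 1 for all 11, against 38.6% of genes with at least 10 reads. The summed RPKM of all 11 was 9.56 against 130, and Ptprc, Tyrobp, Emr1 and Itgam had 0 reads in the supportive one. Summed RPKM of the lymphocyte markers was 0 and 0.0400, and of the endothelial markers 0.00359 and 0.205. Epithelial markers went both ways, with Krt20 at 0.0799 and 3.13 and Cdh1 at 0.427 and 0.0497, and Epcam and Vil1 had at most 8 reads. In a bulk library, fewer cells of a type and less RNA per cell cannot be told apart.

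The class I heavy chain genes share stretches of sequence with their relatives, and this sets how far their read counts can be read. The authors kept reads that aligned to 1 place only, so a read from a stretch with several copies was lost. The stretch below, printed to show what the heavy chains have in common, is the same in H2-K1 (mm9 chr17:34134394-34134443, minus strand) and H2-D1 (mm9 chr17:35402791-35402840, plus strand), lies in an exon of both, and has 16 exact copies in the genome. The other pair shows exon stretches of the same 50-base length that occur once, from H2-K1 (chr17:34137153-34137202, minus strand) and H2-D1 (chr17:35400059-35400108, plus strand).
H2-K1 and H2-D1, 16 copies: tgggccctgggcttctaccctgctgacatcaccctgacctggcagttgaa
H2-K1, 1 copy: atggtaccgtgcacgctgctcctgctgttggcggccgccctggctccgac
H2-D1, 1 copy: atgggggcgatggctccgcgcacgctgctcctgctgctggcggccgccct
Of the 2363 windows of 50 bases in H2-K1 exons, 401 had another exact copy. Of these, 218 had one outside annotated exons, 179 had one in H2-Q10 and 173 in H2-D1, and a window can have several. In H2-D1, 329 of 2246 windows (14.6%) had one, of which 154 lay in H2-Q2 and 126 in H2-K1. With up to 2 mismatches, the number the aligner allowed, 51.7% of H2-K1 windows and 46.4% of H2-D1 windows matched another place in the H2 region of chromosome 17. Reads were therefore lost from both heavy chains, and a read from a close relative carrying mismatches may have been counted on either.

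The promoters of the classical heavy chains and of B2m are shown because they are known to hold the elements through which the pathway is switched on together: a site for interferon regulatory factors (ISRE), a site for NF-kappaB, and the X and Y boxes bound by the complex that Nlrc5 joins. The 250 bases before the transcription start are from RefSeq (GRCm38.p6), at chr2:122147437-122147686 (plus strand) for B2m, chr17:34000334-34000583 (minus strand) for H2-K1 and chr17:35262844-35263093 (plus strand) for H2-D1. Capitals mark matches, on either strand, to the letters searched.
B2m: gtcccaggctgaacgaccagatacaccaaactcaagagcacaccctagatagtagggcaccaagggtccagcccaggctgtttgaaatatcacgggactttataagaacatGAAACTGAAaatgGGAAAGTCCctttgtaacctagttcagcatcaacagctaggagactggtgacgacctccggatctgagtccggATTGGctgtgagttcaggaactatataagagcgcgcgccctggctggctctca
H2-K1: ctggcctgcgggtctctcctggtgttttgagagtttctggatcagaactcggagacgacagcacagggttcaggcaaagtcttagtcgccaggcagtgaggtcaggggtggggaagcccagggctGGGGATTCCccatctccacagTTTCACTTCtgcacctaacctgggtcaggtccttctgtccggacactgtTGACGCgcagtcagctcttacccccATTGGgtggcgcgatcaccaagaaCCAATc
H2-D1: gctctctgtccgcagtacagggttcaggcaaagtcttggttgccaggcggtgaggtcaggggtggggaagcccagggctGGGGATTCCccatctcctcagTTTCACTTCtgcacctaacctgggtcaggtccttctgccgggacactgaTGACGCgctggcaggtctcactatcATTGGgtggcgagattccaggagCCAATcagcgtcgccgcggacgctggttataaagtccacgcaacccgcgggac
The kappaB letters GGNNNTTCC stood at -126 in B2m, -125 in H2-K1 and -171 in H2-D1, counted from the start to the leftmost base of the match, with -1 the base just before it. The ISRE letters GAAANNGAA stood at -139 in B2m. Read from the other end, as GAANNGAAA, they stood at -104 in H2-K1 and -150 in H2-D1. That second spelling was chosen after the promoters were seen. By the first spelling, only B2m of these 3 promoters had an ISRE match, a short distance from its kappaB match. That H2-K1 and H2-D1 had one near theirs rests on the spelling chosen from them. The X2 letters TGACGC stood at -55 in H2-K1 and -101 in H2-D1. The Y box ATTGG stood at -53 in B2m, at -30 and -6 in H2-K1, and at -76 and -53 in H2-D1. Of the 8 members with a promoter in the table (all but Tap2 and Nlrc5), 6 held a Y box, although the match of Tap1 (at -222) and that of Psmb9 (at -8) are the same bases of a promoter between them, against 37.6% of 27025 promoters searched over 250 bases before to 50 after the start. The kappaB letters were in 3 members and 18.5% of promoters, the X2 letters in 2 members and 7.25%, the ISRE letters in 1 member and 8.57%, their other spelling in 2 members and 7.76%, and the interferon-gamma site TTCNNNGAA in 1 member, Psmb8 at -97, and 8.40%. A match of letters is a description and shows no binding.

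Of the 10 genes, 9 had reads, and each of those 9 had a higher RPKM in the supportive library. The exact 95% interval of the ratio, computed from the reads, lay wholly above 1 for 9 of 9, against 32.4% of the 16438 genes with at least 10 reads, and below 1 for 0 of 9, against 38.6%. These intervals cover counting error only and compare the 2 libraries, not the populations. The ratio was at least 2 for 5 of 9 (13.5% of all those genes) and at most 0.5 for 0 of 9 (14.7%). The median ratio was 2.44, or 1.29 on the log2 scale, where the median over all those genes was -0.05.

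Only 5 of the genes (B2m, H2-K1, H2-D1, Tapbp and Psmb10) reached an RPKM of 1 in either library. Among these, 1 was higher by at least 2-fold in supportive ISEMFs once a pseudocount of 0.1 RPKM was added, against 9.01% of 10086 genes at that level, and 0 were at least 2-fold lower, against 9.27%. Their median log2 ratio was 0.60, and that of all 10086 genes was -0.07. Tap1, Tap2, Psmb8 and Nlrc5 had reads but stayed below an RPKM of 1, and Psmb9 had none.

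**Figure D1:**
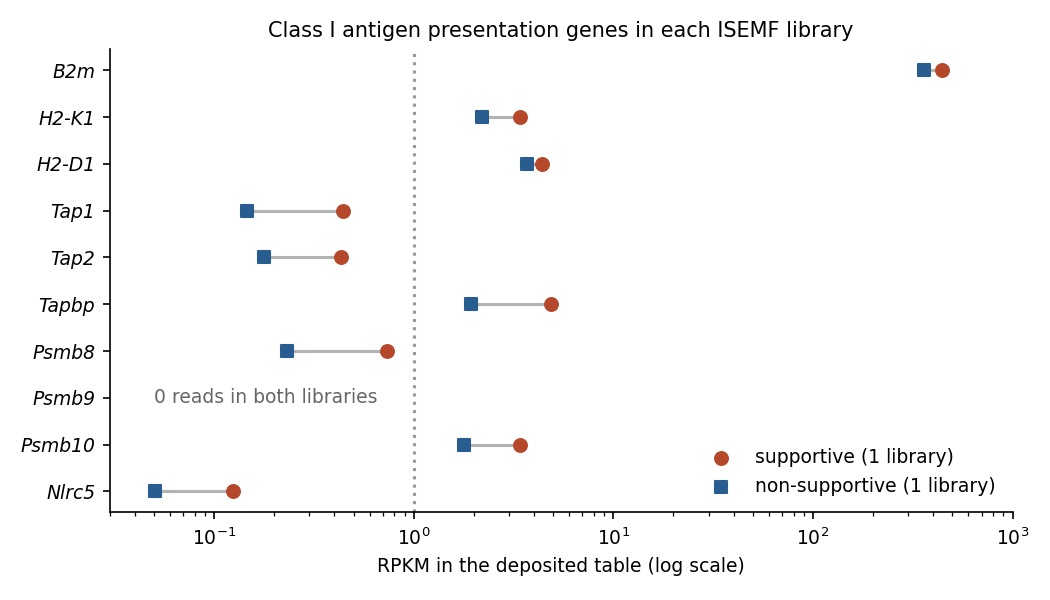
RPKM of each of the 10 genes (log scale) in the supportive library (circles) and the non-supportive library (squares), 1 library each, with a dotted line at an RPKM of 1. The circle lies to the right of the square for all 9 genes with reads, and B2m lies far above the others at 445 and 360.

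B2m encodes the light chain that every class I heavy chain needs to reach the surface. Its RPKM was 445 from 27352 reads against 360 from 21518 reads, which placed it 22nd and 33rd among protein-coding genes. The ratio was 1.24 (95% interval 1.21 to 1.26). The gene (ENSMUSG00000060802) lies at mm9 chr2:121973422-121978819 and all of its exon windows occur once and in no other gene. With so many reads the interval is narrow, but the difference was small and 68.5% of genes with at least 10 reads had a lower ratio.

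H2-K1 and H2-D1 encode the classical heavy chains of C57BL/6 mice, which bind the peptide. H2-K1 (ENSMUSG00000061232, chr17:34132962-34137278) had 1449 and 912 reads, an RPKM of 3.39 against 2.20, and a ratio of 1.54 (1.42 to 1.68). For H2-D1 (ENSMUSG00000073411, chr17:35399675-35404444) the reads were 1256 and 1026 and the RPKM 4.37 and 3.67, a ratio of 1.19 (1.09 to 1.29). The difference was larger for H2-K1, whose ratio was 1.30 times that of H2-D1 (1.15 to 1.46) and 1.25 times that of B2m (1.15 to 1.36). The ratios of H2-D1 and B2m differed by less than counting error (0.963, 0.884 to 1.05). Of the windows of H2-K1 and H2-D1, 83.0% and 85.4% occur once and in no other gene, and what the shared stretches printed above contribute was not tested.

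The deposited exon lengths matter when genes are set beside each other. For 8 of the 10 members the deposited length exceeded the union of the gene's exons in the annotation, by up to 2.29-fold. Shares of subunit pairs are therefore given below on both lengths, and levels of different members are compared by RPKM recomputed on the union length. On that scale B2m stood at 445 and 360, H2-K1 at 7.77 and 5.04, and H2-D1 at 6.79 and 5.71. B2m was 57.2 and 71.6 times H2-K1, and 65.5 and 63.1 times H2-D1. The light chain was thus the most abundant of these transcripts in both libraries by a wide margin. How many heavy chain reads were lost to near copies was not tested.

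Tap1 and Tap2 form the transporter that pumps peptides into the endoplasmic reticulum. Tap1 (ENSMUSG00000037321, chr17:34324498-34334170) had 320 and 103 reads, an RPKM of 0.441 and 0.146, and a ratio of 3.02 (2.41 to 3.81). Tap2 (ENSMUSG00000024339, chr17:34340472-34353266) had 158 and 63 reads, an RPKM of 0.433 and 0.178, and a ratio of 2.44 (1.81 to 3.32). The ratios of the partner subunits could not be separated at this depth (1.24 times, 0.842 to 1.81). On the union length, Tap1 stood at 1.40 times Tap2 among supportive ISEMFs and 1.13 times among non-supportive ISEMFs. Both transcripts were low. Of the windows of Tap2, 25.3% overlap a gene on the other strand, and whether reads there were dropped depends on the strand setting, which is not stated.

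Tapbp encodes tapasin, which holds an empty heavy chain beside the transporter until a peptide binds. It had 2134 and 825 reads, and its RPKM was 4.89 against 1.95, a ratio of 2.51 (2.32 to 2.73). Tapbp (ENSMUSG00000024308, chr17:34052844-34066235) was the 1 member past 2-fold among those that reached an RPKM of 1. Its ratio was 2.03 times that of B2m (1.87 to 2.21). On the union length it stood above both heavy chains in the supportive library, at 9.05, and below both in the non-supportive one, at 3.60. With the length of each gene cut to its countable share, an alternative chosen after seeing the data, Tapbp and H2-K1 could not be ordered in the supportive library (9.34 and 9.36).

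Psmb8, Psmb9 and Psmb10 are the catalytic subunits that turn a proteasome into an immunoproteasome. Psmb8 (ENSMUSG00000024338, chr17:34334666-34338399) had 201 and 62 reads, an RPKM of 0.731 and 0.232, and the largest ratio of the 9 members with reads, 3.15 (2.36 to 4.26). Psmb10 (ENSMUSG00000031897, chr8:108459628-108462292) had 308 and 158 reads, an RPKM of 3.39 and 1.79, and a ratio of 1.89 (1.56 to 2.31). The ratio of Psmb8 was 1.66 times that of Psmb10 (1.17 to 2.39). On the union length, though, Psmb8 stood at 0.303 of the level of Psmb10 in supportive and 0.182 in non-supportive ISEMFs, so the subunit with the wider difference was the scarcer of the pair.

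Psmb9 had 0 reads in both libraries, and this 0 cannot be read as a level. The gene (ENSMUSG00000024337, chr17:34318932-34324697, minus strand) starts within the first bases of Tap1, which runs the other way. Of its 3648 exon bases, 3647 lie in a second gene model on the same strand, CR974422.1 (ENSMUSG00000092299), which also had 0 reads, and none of its 3452 windows is free of another gene. Reads on more than 1 gene were left out by the authors' counting. Across the annotation, 111 protein-coding genes had at least 99% of their exon bases in another gene of the same strand, and 109 of them (98.2%) had 0 reads in both libraries, against 5870 of the other 22268 (26.4%). Had the gene been countable, 3 reads would have been an RPKM of 0.00924 and 0.00950.

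**Figure D2:**
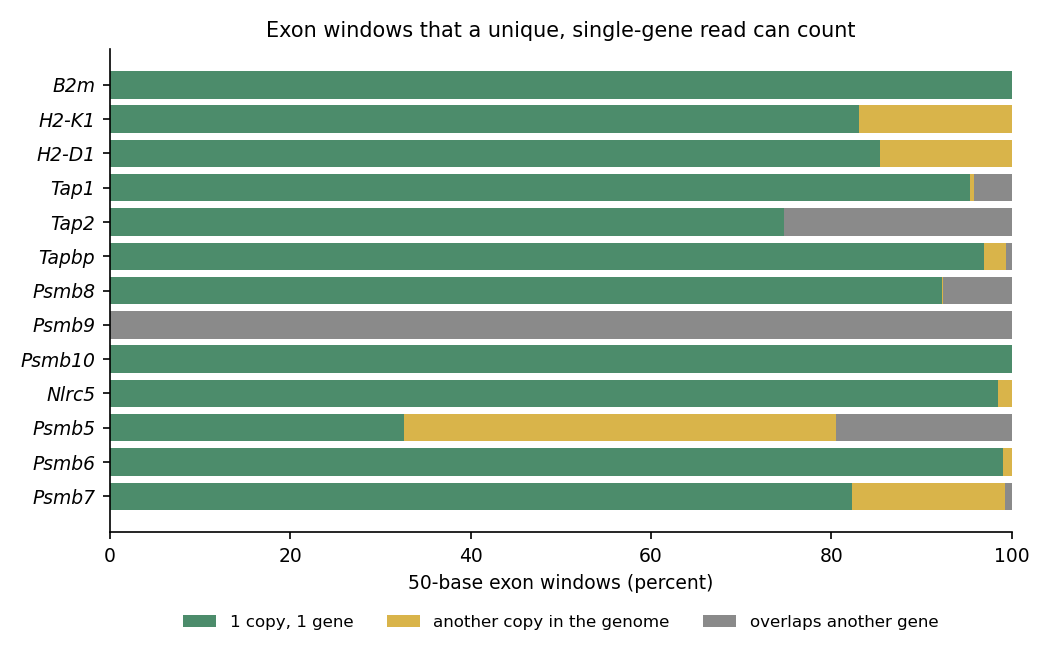
Share of the 50-base exon windows of each member, and of the constitutive subunits Psmb5, Psmb6 and Psmb7, that occur once and touch no other gene (green), that have another copy (yellow) or that overlap another gene on either strand (grey, counted first). B2m and Psmb10 are countable over 100% of windows, H2-K1 and H2-D1 over 83.0% and 85.4%, and Psmb9 over 0%.

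Each inducible subunit takes the place of a constitutive one in the catalytic ring, so their shares were compared. Psmb10 made 11.9% of the summed deposited RPKM of Psmb10 and Psmb7 in supportive and 4.73% in non-supportive ISEMFs (11.4% and 4.52% on the union length). The odds ratio from the reads was 2.72 (exact 95% interval 2.22 to 3.34). The difference had parts in both genes, since Psmb7 was lower in the supportive library, with an RPKM of 25.2 against 36.1 (2289 and 3189 reads). Psmb8 made 57.9% and 22.3% of the sum of Psmb8 and Psmb5 (60.6% and 24.3% on the union length), with an odds ratio of 4.77 (2.89 to 7.94). That pair rests on few reads, since Psmb5 had 44 and 65, and only 32.6% of the windows of Psmb5 are countable, so its share is not a measure of subunit makeup. No share is given for Psmb9 with Psmb6, whose RPKM was 9.68 and 12.1. Constitutive subunits were thus the more abundant transcripts in the pair that can be counted well.

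Nlrc5 encodes the class I transactivator, which is recruited to the X and Y boxes of the promoters shown above. It was the lowest member with reads: 96 and 38 (ENSMUSG00000074151, chr8:96996663-97051172), an RPKM of 0.124 and 0.0503, and a ratio of 2.46 (1.67 to 3.68). With the pseudocount of 0.1 RPKM, its log2 ratio was 0.57, because the pseudocount is near the size of the values.

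**Figure D3:**
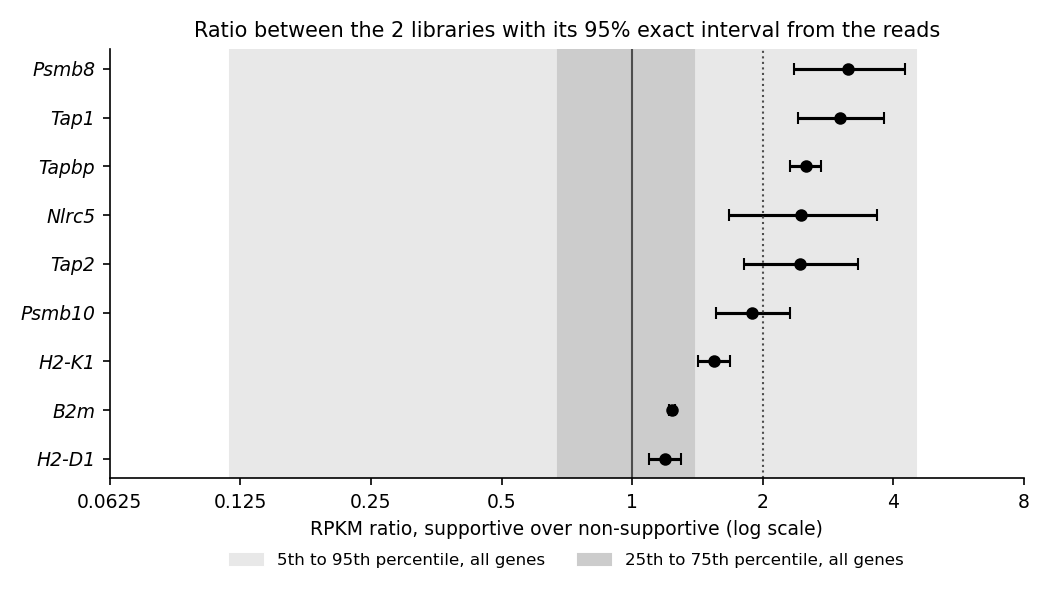
RPKM ratio of supportive over non-supportive (log scale) with its 95% exact interval from the reads, for the 9 members with reads, over grey bands for the 5th to 95th and 25th to 75th percentiles of the ratio among 16438 genes with at least 10 reads. Every interval lies above 1, from 1.19 for H2-D1 to 3.15 for Psmb8, and the intervals of Psmb8, Tap1 and Tapbp lie wholly above the dotted line at 2.

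Within the pathway, the members thus formed a range. The transporter, tapasin, Psmb8 and Nlrc5 had ratios from 2.44 to 3.15, Psmb10 and H2-K1 stood at 1.89 and 1.54, and B2m and H2-D1 at 1.24 and 1.19. Tap1 and Psmb8 had higher ratios than 92.3% and 92.6% of genes with at least 10 reads, Tapbp than 90.1%, and H2-D1 than 66.1%. By level on the union length, the order in the supportive library was B2m, Tapbp, H2-K1, H2-D1, Psmb10, Psmb8, Tap1, Tap2 and Nlrc5, and every neighbour in it differed beyond counting error. With lengths cut to the countable share, Tapbp and H2-K1 (0.998 times, 0.933 to 1.07) and Tap1 and Tap2 (1.10 times, 0.903 to 1.34) could not be ordered there. In the non-supportive library the order was B2m, H2-D1, H2-K1, Tapbp, Psmb10, Psmb8, Tap1, Tap2 and Nlrc5. In that library, Psmb8 and Tap1 (1.20 times, 0.865 to 1.67) and Tap1 and Tap2 (1.13 times, 0.817 to 1.57) could not be ordered. With 2 libraries, no likeness of pattern between genes can be measured.

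Other genes of the class I family were read from a list of 25 rows, of which 7 passed an RPKM of 1. Supportive ISEMFs were at least 2-fold higher for 5 of these, against 9.01% of all genes at that level, with a median log2 ratio of 1.52. Hfe and H2-T23 reached that level only in the supportive library. Over the 11 with at least 10 reads, the interval of the ratio was above 1 for 8 and below 1 for 3. The shares of all such genes were 32.4% and 38.6%. Mr1, which presents microbial vitamin metabolites, had an RPKM of 22.3 and 7.70, a ratio of 2.90 (2.72 to 3.08). Fcgrt, the neonatal Fc receptor, had 11.4 and 3.13, a ratio of 3.64 (3.25 to 4.09). For Hfe, a regulator of iron uptake, the values were 1.73 and 0.128, a ratio of 13.5 with a lower bound of 9.46. Each of these pairs with the B2m light chain described above. H2-T23, which encodes the nonclassical Qa-1, had 1.09 and 0.214, and 64.6% of its windows are countable. The remaining gene of the 7 past 2-fold higher was H2-M3 (3.39 and 1.40). The 1 gene of the 7 at least 2-fold lower (9.27% of all genes at that level) was Cd1d1, which presents lipids (ratio 0.420, 0.365 to 0.482). Below an RPKM of 1 in both libraries, H2-M2 (0 and 43 reads) and H2-M9 (2 and 31 reads) were also lower, with intervals below 1. These 4 genes were named after their values were seen. Another 9 rows had 0 reads in both libraries, among them copies that share windows with the classical heavy chains.

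Loading chaperones and trimming enzymes were mixed. Of 11, 1 was at least 2-fold higher, a share near the 9.01% of all genes, 0 were lower, and the median log2 ratio was -0.13. That 1 gene was Tapbpl, a relative of tapasin that edits the bound peptides, with an RPKM of 4.55 and 1.75 and a ratio of 2.60 (2.27 to 2.99). Erap1, which trims peptides in the endoplasmic reticulum, had 2.55 and 1.55, a ratio of 1.65 (1.49 to 1.82). The general chaperones Hspa5 (319 and 407) and Canx (187 and 257) were lower in the supportive library, at ratios of 0.783 and 0.729. Over the whole list, the interval of the ratio was above 1 for 4 genes and below 1 for 6, against 32.4% and 38.6% of all genes with at least 10 reads.

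The constitutive 20S proteasome lay on the other side of the immunoproteasome subunits. Of 14 genes, the interval of the ratio was wholly below 1 for 12 and above 1 for 1, against 38.6% and 32.4% of all genes with at least 10 reads. The 1 above was Psmb1 (30.8 and 27.7), named after its values were seen. Among the 11 with an RPKM of at least 1, the median log2 ratio was -0.52. Of these, 1 was at least 2-fold lower, a share near the 9.27% of all genes at that level. That 1 was Psma7, at 26.4 and 54.5, with a ratio of 0.484 (0.469 to 0.499). Psma6 (26.6 and 36.3) and Psma1 (10.1 and 17.3) were lower by less. Of 8 activators and assembly factors, 1 was at least 2-fold higher and 0 lower, against 9.01% and 9.27% of all genes at that level. Their median was -0.32. The 1 higher was Psme1, a subunit of the interferon-inducible PA28 cap, with an RPKM of 6.01 and 2.43 and a ratio of 2.48 (2.30 to 2.67). Pomp, which assembles both kinds of proteasome, had 226 and 349.

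Regulators of class I transcription were mixed. Of 19 that passed an RPKM of 1, 4 were at least 2-fold higher and 0 lower, against 9.01% and 9.27% of all genes at that level. Irf1 and Irf9 passed it only in the supportive library. The median log2 ratio was 0.15. Over the 25 with at least 10 reads, the interval was above 1 for 13 and below 1 for 8, against 32.4% and 38.6%. Irf8, below an RPKM of 1 in both libraries, had 1 and 42 reads and was named after its values were seen. Stat2, which carries the type I interferon signal, had an RPKM of 12.4 and 1.93, a ratio of 6.41 (5.93 to 6.94). Irf1, which binds the ISRE of class I promoters, had 1.98 and 0.650, a ratio of 3.04 (2.64 to 3.51). Irf9, which works with Stat2, had 2.59 and 0.702 and was named after its values were seen. The signalling kinase Jak1 (19.8 and 25.9) and the X2-binding factor Atf1 (18.1 and 15.5) had ratios of 0.767 and 1.17. Rfx5, the X box subunit, had 0.403 and 0.210, a ratio of 1.92 (1.68 to 2.20). Ciita, the class II counterpart of Nlrc5, had 2 reads and 0 (a second row of that symbol had 0 in both), and the interferon genes Ifnb1 and Ifng had 0 reads in both libraries, where 0 allows up to 3 reads.

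Interferon-stimulated genes outside the pathway were read from a list of 20. Supportive ISEMFs were at least 2-fold higher for 13 of the 15 that passed an RPKM of 1, and 0 of the 15 were at least 2-fold lower. Over all genes at that level the shares were 9.01% and 9.27%. The median log2 ratio of the 15 was 2.54. Most of the 13, Isg15 and Ifit1 among them, reached that level only in the supportive library, where they were high. The count of 13 thus owes much to a filter that 1 library can pass alone. Isg15, a ubiquitin-like protein made after interferon, had an RPKM of 14.2 and 0.267, and Ifit1, which binds viral RNA, 6.62 and 0.352. The exceptions among the 15 were Ifit2, at 6.65 and 6.87, and Ifi47, at 3.24 and 5.08, the latter named after its values were seen. Over the 19 with at least 10 reads, the interval was above 1 for 15 and below 1 for 3. The shares of all such genes were 32.4% and 38.6%. Those 3 were Ifi47, Cxcl10 (6 and 47 reads, ratio 0.124) and Rsad2 (19 and 57 reads, ratio 0.324). Cxcl10 and Rsad2 stayed below an RPKM of 1 in both libraries and were named after their values were seen. In the supportive library, the class I presentation genes with reads were higher and the macrophage markers were lower. The part of interferon signalling, and of cells that carry the macrophage markers, in the values of the 10 genes was not tested.

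**Figure D4:**
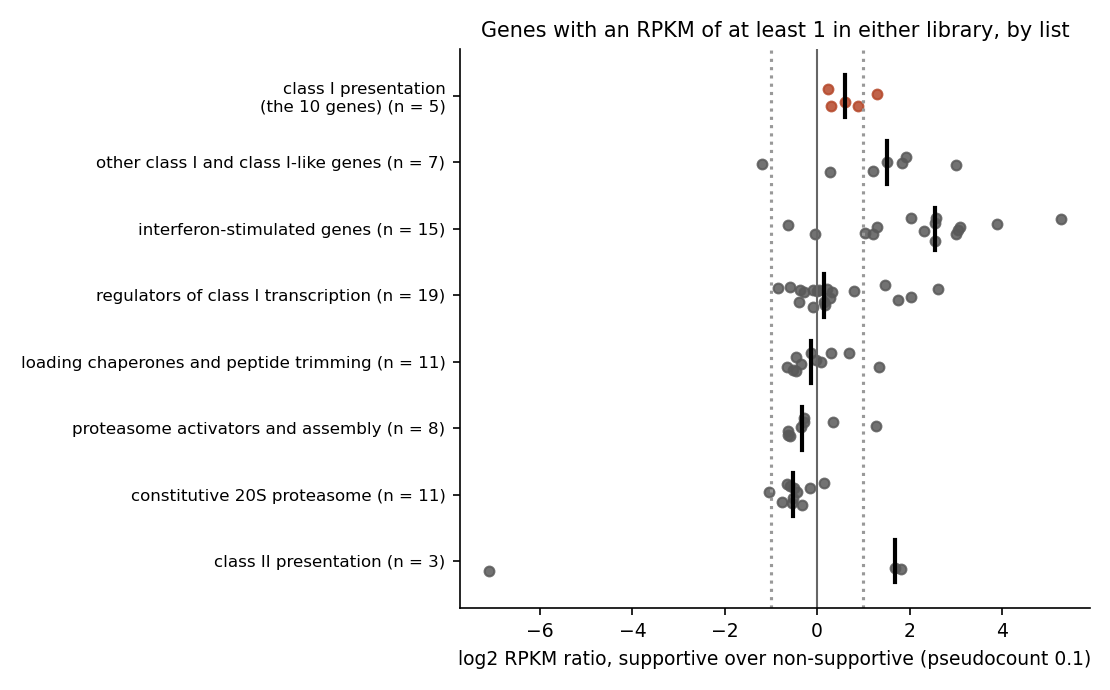
Log2 RPKM ratio of supportive over non-supportive (pseudocount 0.1) for each gene that reached an RPKM of 1 in a library, by list, with a bar at the list's median and dotted lines at 2-fold. The 5 class I presentation genes have a median of 0.60, interferon-stimulated genes 2.54 and the constitutive 20S proteasome -0.52.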

How the data were processed

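RNA of 1 supportive and 1 non-supportive ISEMF culture was sequenced as single reads of 50 bases. The authors aligned them to mm9 with TopHat2 2.0.4, with Ensembl genes (release not given in the sources used here), allowing 2 mismatches and unique hits only, and counted reads per gene with HTSeq 0.5.4p3. The TruSeq kit does not mark strand, and the strand setting of the counting is not stated. The deposited counts are whole reads per gene. The deposited RPKM values are those counts divided by an exon length and by library sizes of 71463423 and 69449374. The deposited log2 ratio, p-values and adjusted p-values are the authors' own DESeq comparison and were not used. Nor was their table of Wnt genes, which holds no member.

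The quasi-likelihood test of edgeR and the test of DESeq2 need replicates, and each population had 1 library, so no p-value is given. Ratios are of RPKM, with 95% exact Clopper-Pearson intervals. Log2 ratios used a pseudocount of 0.1 except where no pseudocount is stated, and 2-fold counts took genes that reached an RPKM of 1 in a library. Interval counts took genes with at least 10 reads and were added after the data were seen. Exon windows, positions and union lengths came from GENCODE vM1 on the mm9 genome, which holds all 37309 gene identifiers. The deposited length equals the union length for 65.7% of them and exceeds it for 34.3%. The members and lists were chosen with earlier results of these data known. Named are all members, the 2 genes of each list with the highest mean RPKM and the 2 with the largest log2 ratio, Psmb5, Psmb6, Psmb7, Irf1, Rfx5, Ciita, Ifnb1 and Ifng. A gene that the rule also names is not reported here.

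The alternatives changed the minimum RPKM to 5 or none, the pseudocount to 1 or 0.001, the threshold to 4-fold, the scaling, and the length to the union length. The steps were tested on simulated data with 200 changed genes. R 4.3.3, Python 3.11.15, scipy 1.17.1, numba 0.67.0, numpy 2.4.6, pandas 2.3.3, matplotlib 3.10.9, edgeR 4.0.16 (TMM factors only) and DESeq2 1.42.0 (size factors only) were used.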

Additional observations from a re-analysis of the deposited data

How the results depend on the processing

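All 54 alternative log2 ratios of the members with reads were above 0. They could not fall below it, since a pseudocount does not change the sign of a log2 ratio and each other scaling raised it. Of 143 alternative counts, medians and shares, 129 stayed close to the reported value. Close meant within 1.5 times for counts and within counting error for shares. For medians it meant within the median margin (from middle to end) of the single members' log2 intervals, which is not an error of the median. The members' median ran from 0.46 to 0.89, the count of interferon-stimulated genes fell from 13 to 10 and that of regulators from 4 to 3 with a pseudocount of 1. The count of members with the interval above 1 was 9 under each of the 4 other scalings, and it could not fall because each of them raised the ratios. The count of members at least 2-fold higher, 1 as reported, was 0 with a pseudocount of 1, at 4-fold and with a minimum RPKM of 5 (1 member left), 2 with the library size without mitochondrially encoded genes and with the union length (of 6, an alternative chosen after seeing the data), and 3 with no minimum RPKM (of 9). With a pseudocount of 1, 3 other class I genes were at least 2-fold higher and 0 lower, against 5 and 1 as reported. At that pseudocount 1 class II gene was higher, against 2 as reported. The 1 gene of the 20S proteasome at least 2-fold lower became 0 with the median log2 ratio set to 0, with TMM factors and without mitochondrially encoded genes. The share of Psmb8 in Psmb8 and Psmb5 was 82.0% and 48.8% by reads in place of RPKM. Leaving mitochondrially encoded genes out of the library size raised each log2 ratio by 0.12. The other scalings raised it by 0.04 to 0.07. Low genes depend on the pseudocount, with Nlrc5 between 0.10 and 1.28 and Tap1 between 0.33 and 1.59, while B2m lay between 0.30 and 0.43. With lengths cut to the countable share of exon windows, also chosen after seeing the data, Tapbp stood at 0.998 times H2-K1 in the supportive library, against 1.16 as reported. No paired analysis was possible because each population has 1 library.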

Other observations

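Class II presentation, by which professional antigen-presenting cells show peptides to CD4+ T cells, was read from a list of 10 genes, of which 3 passed an RPKM of 1. Ctss, the lysosomal protease cathepsin S, which is abundant in macrophages, had 4 reads in supportive and 2255 in non-supportive ISEMFs, an RPKM of 0.0311 and 18.1, and a ratio of 0.00172 (95% interval 0.000469 to 0.00442). H2-DMa and H2-DMb1, which form the peptide exchanger of class II, had an RPKM of 1.82 and 0.444 and of 3.55 and 1.04, with ratios of 4.09 (3.13 to 5.41) and 3.42 (2.79 to 4.23). H2-DMa passed an RPKM of 1 only in the supportive library, and Ctss only in the non-supportive one. Of the windows of H2-DMb1, 71.8% are countable. The chains of the class II molecule itself stayed below an RPKM of 1: H2-Ab1 had 2 and 32 reads and H2-Aa had 0 in both, named after their values were seen.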
